A study of Mus musculus with 4 samples.

Results

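The genes followed here encode Polycomb proteins, read across germinal centre (GC) and naive B cells of the mouse. They are Ezh2, Ezh1, Eed, Suz12, Jarid2, Phf19, Mtf2, Bmi1, Rbbp7 and Rbbp4. They were chosen by name as members of the complexes, 10 of the 18193 genes on the array, and read through all probe sets that the platform annotation assigns to one of these symbols alone, 32 of 34945 such probe sets. A probe set is a group of short probes meant for 1 transcript, though some types can bind several. The 4 samples were sorted from adult C57BL6/J wild type mice, with no transgene or deletion in any group, and each was pooled from 3 to 5 mice and hybridised to 1 array. GC cells were B220+PNA+Fas+ and naive cells B220+PNA-Fas-. Peripheral lymph nodes (pLN) gave both populations after immunization with TNP-KLH, a hapten on a carrier protein, given in incomplete Freund's adjuvant. The same gates were used on untreated mice for Peyer's patches (PP), which are lymphoid organs of the gut wall. Tissue and immunization therefore cannot be told apart, and with 1 array a group the number of arrays limits every value.

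Polycomb proteins keep genes silent through marks on histones. Polycomb repressive complex 2 (PRC2) methylates lysine 27 of histone H3 through its catalytic subunit, EZH2 or EZH1, which works only when bound to EED and SUZ12. The histone-binding proteins RBBP4 and RBBP7 complete the core, and JARID2, MTF2 and PHF19 help to bring it to chromatin. Polycomb repressive complex 1 (PRC1), which contains BMI1, ubiquitinates histone H2A. In B cells EZH2 is known as a factor of the GC reaction, while EZH1 is the form that is usually found in resting cells.

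Several facts about the arrays bear on the values below. For Gapdh, the 3' control signal exceeded the 5' one, a sign of RNA quality, 1.48-fold and 1.67-fold on the GC arrays of pLN and PP, against 18.7-fold and 96.4-fold on the naive arrays. This 3' bias moved with cell type and was widest for naive PP. Its part in the folds below was not tested, since the distance of the probe sets from the 3' end was not used here. Signals are given after scaling each array to an equal trimmed mean. A background level was set on each array from genes of other tissues, at 31.8 and 40.6 for GC cells (pLN and PP) and at 73.4 and 121 for naive cells. In sorted populations of this kind a smaller share of cells that express a gene and less RNA of it per cell cannot be told apart. All 7 measured B cell markers lay above the level on all 4 arrays. Fas, on which the cells were sorted, read 4266 (pLN) and 4980 (PP) in GC cells and 515 and 403 in naive cells. Ptprc, which encodes the B220 antigen, was not called by its brightest probe set (-0.20 ± 0.43, limma adjusted p = 0.728). Its other tested probe set stood at 2.53. Of the 7 B cell markers, Cd79a (-1.40) and Cd22 (-1.96) were called lower in GC cells and 5 were not called. The T cell list of 10 markers had a summed signal of 701 to 1307 over the arrays, the list of 10 myeloid markers 821 to 943 and the list of 8 stromal and endothelial markers 454 to 1455. The 8 gut epithelial markers summed to 664 and 1360 on GC and naive pLN and to 2089 and 4791 on GC and naive PP. The part of these other cells in the results was not tested.

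Most Polycomb probe sets read higher in GC cells. Folds are differences of log2(signal + 12.1), GC minus naive, with the standard error that limma gave over both tissues (n = 2 arrays a cell type), and a probe set was called at an adjusted p under 0.05 over all 24454 probe sets tested. Of the 32 member probe sets, 29 passed the filter on dim signals; the others, Eed 1453830_at, Phf19 1431857_at and Mtf2 1459811_at, were not above the level on both arrays of either cell type. 18 were called higher, 3 lower and 8 were not called, beside 31.7% higher and 15.9% lower among all probe sets tested. Suz12 and Mtf2 gave 5 each of the 18, and probe sets of 1 gene are not independent, here and in the counts below. The filter admits probe sets through the cell type in which they are bright, so the count was also made for the 20 member probe sets above the level on all 4 arrays. Of these, 12 were higher, 3 lower and 5 not called, beside 20.6% higher and 22.4% lower among all 15666 such probe sets. The median fold of the 29 was 1.20, beside 0.40 over all tested. Scaling moved the whole distribution: of all calls 66.7% were higher, against 55.2% after quantile normalization and 99.0% when scaled to the spike-in controls. The median of the 29 member probe sets was 1.28 and 2.34 in these, beside 0.13 and 1.5 over all. Of the member probe sets, 18 and 13 were called higher and 3 and 0 lower. The shares called over all probe sets in these settings are not set beside them, so these counts are not read as a result about the members. Leaving out 1 array drops the tissue block. The spread then comes from the 2 arrays of the other cell type, moderated over all probe sets, and the lone array is assumed to vary like them. The PP-pLN difference over the members had a median size of 0.09 on the GC arrays and 0.63 on the naive arrays. Over all probe sets tested it was 0.26 and 0.59, so these refits have unlike errors. With 1 array left out the counts of calls changed widely, for the members and for all probe sets. Both ranges are given at the end, and neither is read as a result about the members.

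**Figure D1:**
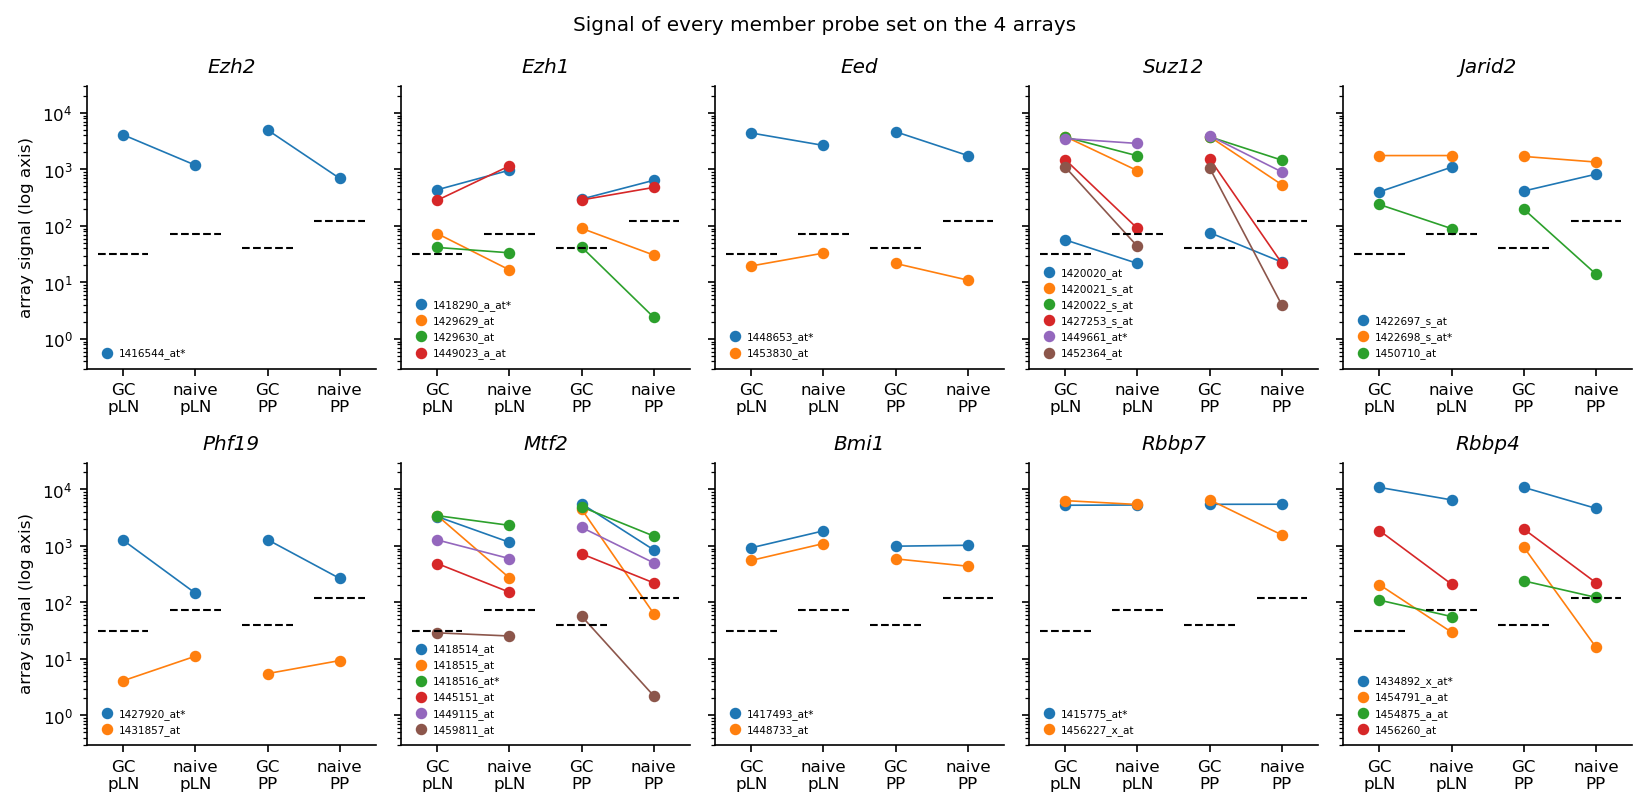
Array signal on a log axis for each of the 32 member probe sets (1 colour a probe set within a gene, 1 array a point) on the 4 arrays; lines join GC and naive cells of a tissue, dashes mark the background level of the array and an asterisk the brightest probe set of the gene. Ezh2 falls from 4106 to 1190 in pLN and from 5003 to 694 in PP, while the brightest probe set of Ezh1 rises from 437 to 971 and from 299 to 643.

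Ezh2, the catalytic subunit of PRC2 in dividing cells, had 1 probe set, 1416544_at. It read 4106 in GC cells and 1190 in naive cells of pLN, and 5003 and 694 in PP. Both GC arrays were above both naive arrays. GC cells were 4.99-fold higher over the tissues, a log2 fold of 2.30 ± 0.43 (limma adjusted p = 5.8e-05). It was 3.45-fold higher in pLN and 7.21-fold in PP. Across 20 alternatives the log2 fold ranged from 1.92 to 3.50 and the adjusted p (limma) from 6.1e-07 to 0.0464, so the call held in all of them.

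Suz12, the scaffold of PRC2, was read by 6 probe sets, and all were on the positive side. The brightest, 1449661_at, gave 3526 and 3944 in GC cells (pLN, then PP) and 2886 and 904 in naive cells. The groups did not overlap, but the fold rested largely on PP: it was 0.29 in pLN and 2.11 in PP, and the mean of 1.20 ± 0.45 (limma adjusted p = 0.0283) lost its call without naive PP (0.37, adjusted p = 0.116), without GC PP (1.12, adjusted p = 0.333) and without GC pLN (1.28, adjusted p = 0.258). In the last 2 of these the fold stayed close to its value on all arrays. Without the tissue block its adjusted p was 0.12. A probe set with similar GC signals, 1420021_s_at, read 3821 and 3801 in GC cells and 950 and 537 in naive cells, a fold of 2.39 ± 0.42 (limma adjusted p = 2.8e-05). 1420022_s_at was called at 1.24 ± 0.42 (adjusted p = 0.0164), and at a like fold not without GC PP (1.23, adjusted p = 0.229) or GC pLN (1.24, adjusted p = 0.209). The widest gaps came from 1427253_s_at, with 1490 and 1546 in GC cells and 90.3 and 21.9 in naive cells, and from 1452364_at, with 1100 and 1059 against 43.4 and 3.99. Because naive signals of these lay below the level, in PP for the first and in both tissues for the second, GC cells can be said to be at least 14.5-fold and at least 11.5-fold higher. These bounds set a dim signal at the level of its array and do not allow for the weak 5' reading of the naive arrays. The dimmest, 1420020_at, was not called (1.18 ± 0.54, limma adjusted p = 0.0701), and its naive signals of 21.7 and 22.9 were below the level. Its GC signals of 56.7 and 76.2 (pLN, then PP) lay under the naive level of the same tissue, so no bound can be given. In GC cells the 5 called probe sets differed by no more than 0.16 between PP and pLN (1 array each, no test). In naive cells the PP-pLN difference was -1.66 for 1449661_at, -0.81 for 1420021_s_at and -0.25 for 1420022_s_at. For 1427253_s_at and 1452364_at the naive PP signal lay below the level, so no size is given.

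Eed, which binds the trimethylated histone and activates the enzyme, was higher in GC cells by less. Its probe set 1448653_at read 4418 and 4651 in GC cells (pLN, then PP) and 2664 and 1762 in naive cells. The groups did not overlap and the fold was 1.06 ± 0.43 (limma adjusted p = 0.0419). The call was narrow. Without GC PP or GC pLN the fold stayed at 1.02 and 1.10, with the spread then taken from the naive pair (adjusted p = 0.33 and 0.282). It was also lost on the deposited scale (0.92, adjusted p = 0.0726), with no offset (1.07, adjusted p = 0.0518), with no filter (adjusted p = 0.067) and with no variance trend (adjusted p = 0.0608).

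Ezh1, the other catalytic subunit, was lower in GC cells by both of its bright probe sets. 1418290_a_at read 437 and 299 in GC cells (pLN, then PP) and 971 and 643 in naive cells, and 1449023_a_at 285 and 289 against 1155 and 481. In both probe sets each naive array was above each GC array. The folds were -1.10 ± 0.43 (limma adjusted p = 0.0341) and -1.34 ± 0.45 (adjusted p = 0.0141). Ezh1 was thus opposite to Ezh2 in both tissues, 2.22-fold and 2.15-fold higher in naive cells by the first probe set. Without GC PP the folds were -0.84 and -1.35 (adjusted p = 0.43 and 0.226) and without GC pLN -1.37 and -1.33 (0.185 and 0.223), so that of the second probe set hardly moved while the calls were lost. Without naive pLN they were -0.81 and -0.72 (0.0875 and 0.0956). Without the tissue block the adjusted p was 0.0635 and 0.0626. Scaled to the spike-in controls, the folds were 0.07 and -0.17. The other Ezh1 probe sets were dim and pointed the other way. 1429629_at read 73.3 and 90.8 in GC cells and 16.7 and 30.5 in naive cells and was called higher (1.42 ± 0.53, adjusted p = 0.0282; 0.309 without GC PP and 0.199 without GC pLN), and 1429630_at, with 41.7 and 42.4 against 33.5 and 2.41, was not called (1.07 ± 0.57; without naive pLN 1.90, adjusted p = 0.00667). Their GC signals lay under the level of naive PP, so no bound can be given, and with dim signals set at the level the folds were -0.19 and -0.98.

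The promoters of 4 of these genes are shown because the genes share or oppose each other in fold: Ezh2, Suz12 and Phf19, called higher in GC cells, and Ezh1, called lower by its bright probe sets. Each line gives the 250 bases before the RefSeq transcription start (GRCm38.p6), 5′ to 3′ on the strand of the gene. Capitals mark matches on either strand. The letters searched were GCGGGAA for E2F. For the box named after its own letters they were CCAAT. For the cell cycle homology element, CHR, they were TTTGAA.
Ezh2 chr6:47595031-47595280 (- strand): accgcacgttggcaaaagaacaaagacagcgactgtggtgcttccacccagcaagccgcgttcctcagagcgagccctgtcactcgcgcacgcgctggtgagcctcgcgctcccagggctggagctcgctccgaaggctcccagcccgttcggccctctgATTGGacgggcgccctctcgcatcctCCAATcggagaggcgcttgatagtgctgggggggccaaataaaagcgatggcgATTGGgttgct
Suz12 chr11:79992856-79993105 (+ strand): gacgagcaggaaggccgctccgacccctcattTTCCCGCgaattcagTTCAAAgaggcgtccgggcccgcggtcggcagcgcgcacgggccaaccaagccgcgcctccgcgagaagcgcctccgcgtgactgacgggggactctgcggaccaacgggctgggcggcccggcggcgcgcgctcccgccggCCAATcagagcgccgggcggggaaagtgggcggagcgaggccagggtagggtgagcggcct
Phf19 chr2:34913977-34914226 (- strand): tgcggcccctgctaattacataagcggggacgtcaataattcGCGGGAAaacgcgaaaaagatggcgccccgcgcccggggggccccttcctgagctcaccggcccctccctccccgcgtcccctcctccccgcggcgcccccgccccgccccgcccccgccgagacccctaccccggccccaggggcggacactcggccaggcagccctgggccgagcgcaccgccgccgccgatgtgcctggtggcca
Ezh1 chr11:101226464-101226713 (- strand): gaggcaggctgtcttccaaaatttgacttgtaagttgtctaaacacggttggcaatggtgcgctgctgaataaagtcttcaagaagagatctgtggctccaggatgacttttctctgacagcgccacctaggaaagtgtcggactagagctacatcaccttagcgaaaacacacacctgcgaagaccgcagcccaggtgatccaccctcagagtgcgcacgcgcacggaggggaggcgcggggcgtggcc
The Ezh2 window held 3 CCAAT matches, starting 90, 64 and 11 bases before the start, and none of the other motifs. That of Suz12 held 1 of each, the E2F match 218 bases before the start, and that of Phf19 held 1 E2F match at 208. The Ezh1 window held none. Among 32851 promoters of this length, 3.82% held the E2F letters, 33.8% CCAAT and 16% the CHR letters. In the other members, Eed held 2 CHR matches, Rbbp4 and Rbbp7 1 CCAAT match each, and Bmi1 none; Jarid2 and Mtf2 have 2 listed starts each, of which 1 held a CCAAT match, for Mtf2 with a CHR match beside it. A match is a description of letters and says nothing of binding in these cells. The 4 windows shown held 23, 37, 31 and 14 CpG dinucleotides in the order printed, where the median promoter held 6.

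Of the factors that bring PRC2 to chromatin, Phf19 and Mtf2 were higher in GC cells, and Jarid2 gave no single answer. Phf19, a Tudor-domain protein that binds methylated lysine 36 of histone H3, had the highest fold among the brightest probe sets of the 10 genes. Its probe set 1427920_at read 1262 and 1292 in GC cells (pLN, then PP) and 146 and 266 in naive cells. The groups were far apart, with a fold of 2.62 ± 0.44 (limma adjusted p = 1.3e-05), and the call held in all 20 alternatives (2.09 to 3.79, adjusted p at most 0.0341). It was the only tested probe set of Phf19, Mtf2 and Jarid2 with a fold more positive in pLN (3.01) than in PP (2.23).

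Mtf2, a paralogue of Phf19, was called higher by all 5 of its tested probe sets. The brightest, 1418516_at, read 3442 and 4921 in GC cells (pLN, then PP) and 2316 and 1496 in naive cells, a fold of 1.14 ± 0.44 (limma adjusted p = 0.0309). Next, 1418514_at read 3312 and 5578 against 1161 and 852 (2.10 ± 0.43), and 1418515_at 3450 and 4475 against 272 and 63.3, at least 21.7-fold higher with the naive PP signal at the level. 1449115_at was higher by 1.57 ± 0.43 and 1445151_at by 1.64 ± 0.45. The GC arrays were above the naive arrays in each of the 5, which read 1 gene and are not independent. The share of all probe sets that separate in this way was not counted. Positive folds in both tissues, a looser condition, were found in 51.2% of all probe sets tested. Only 1418515_at kept its call whichever array was left out; 1418514_at lost it without GC PP (1.72, adjusted p = 0.0955), and the other 3 lost it without either GC array (folds 0.88 to 1.93, adjusted p from 0.0604 to 0.405). Mtf2 was also higher in GC cells of PP than of pLN, by 0.37 to 0.75 in the 5 probe sets, which was not tested.

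Jarid2, a DNA-binding cofactor that recruits PRC2 and tunes its activity, had 3 tested probe sets that disagreed. The brightest, 1422698_s_at, read 1761 and 1701 in GC cells (pLN, then PP) and 1763 and 1353 in naive cells. It overlapped between cell types and differed by 0.16 (95% interval -0.69 to 1.01). 1422697_s_at was lower in GC cells, at 401 and 415 against 1098 and 825 (-1.20 ± 0.43, limma adjusted p = 0.0211). 1450710_at was higher, at 240 and 199 against 89.8 and 14.1 (2.16 ± 0.52, adjusted p = 0.00114), or at least 2.10-fold with the naive PP signal at the level. Without GC PP these folds stayed at -1.22 and 2.28 (adjusted p = 0.236 and 0.101) and without GC pLN at -1.18 and 2.03 (0.239 and 0.14); the calls were lost with the spread taken from the naive pair.

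**Figure D2:**
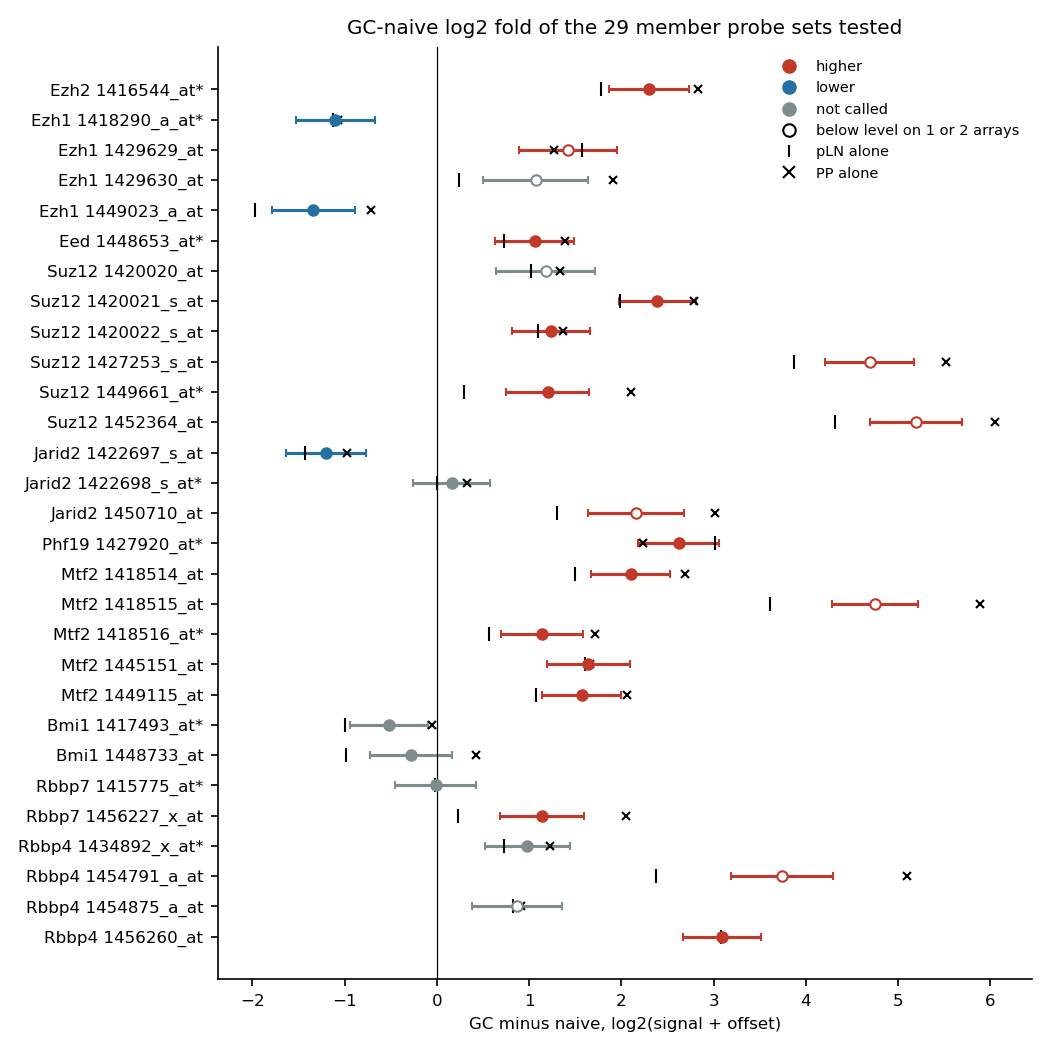
GC minus naive difference in log2(signal + offset) for the 29 member probe sets tested: points are means over the 2 tissues with the limma standard error (red called higher, blue called lower, grey not called; open where the probe set lay below the level on 1 or 2 arrays), bars and crosses the fold in pLN and PP alone. Ezh2 stands at 2.30 and Phf19 at 2.62, the bright Ezh1 probe sets at -1.10 and -1.34, and the Suz12 probe sets run from 1.18 to 5.19.

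The histone-binding subunits Rbbp4 and Rbbp7 also sit in chromatin complexes other than PRC2, and they are close paralogues, so probes of one may read the other. Rbbp7 was not called by its brightest probe set, 1415775_at, which read 5252 and 5457 in GC cells (pLN, then PP) and 5310 and 5481 in naive cells. The difference was -0.01, with a 95% interval from -0.91 to 0.89. The probe set 1456227_x_at, a type that can bind several transcripts, gave 6344 and 6549 in GC cells and 5420 and 1568 in naive cells; it was called (1.14 ± 0.46, adjusted p = 0.0426), with nearly all of the gap in PP (0.23 in pLN, 2.05 in PP). Its call was lost without naive PP (0.25, adjusted p = 0.141), without GC PP (1.12, adjusted p = 0.356) and without GC pLN (1.16, adjusted p = 0.329), and without the tissue block its adjusted p was 0.149. The brightest probe set of Rbbp4, 1434892_x_at, is also of the type that can bind several transcripts. It read 10877 and 10890 in GC cells and 6537 and 4631 in naive cells. These groups did not overlap, but the fold of 0.98 ± 0.46 was not called (limma adjusted p = 0.0782); it was called after quantile normalization (1.99, adjusted p = 2.1e-04), after cyclic loess (1.79, adjusted p = 4.4e-05), and without the tissue block (adjusted p = 0.0486). With 1 naive array left out the fold was 1.23 without naive pLN and 0.73 without naive PP. The spread in these 2 refits came from the GC pair alone, moderated over all probe sets, and the refits add no support. 1456260_at was higher in GC cells by the same amount in both tissues, 1876 and 1997 against 211 and 224 (3.09 ± 0.42, limma adjusted p = 6.8e-07). 1454791_a_at read 207 and 957 against 29.8 and 16.2, at least 4.72-fold higher, and 1454875_a_at was not called (0.87 ± 0.49).

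Probe sets of 1 gene often disagreed in these data. Of the 7 members with several probe sets tested, Suz12, Mtf2, Rbbp4 and Bmi1 had folds of 1 sign and Ezh1, Jarid2 and Rbbp7 did not. Over all 5329 genes with several tested probe sets, 50.7% had 1 sign. The median range of log2 folds within a gene was 2.87 over the 7 members and 1.65 over all such genes.

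Bmi1, the PRC1 subunit that stimulates the ubiquitin ligase, was not called. Its probe set 1417493_at read 928 and 991 in GC cells (pLN, then PP) and 1850 and 1029 in naive cells, and 1448733_at 555 and 591 against 1103 and 438. GC signals were alike in the tissues, and naive pLN was the highest array in both probe sets. The folds were -0.52 (95% interval -1.38 to 0.34) and -0.28 (-1.18 to 0.62). In pLN alone both stood near -1 (-0.99 and -0.98), in PP at -0.05 and 0.42. Without naive PP, the array with the strongest 3' bias, the folds were -0.94 and -0.93 (limma adjusted p = 0.0175 and 0.0309), and without naive pLN -0.10 and 0.38 (adjusted p = 0.753 and 0.315). Each of these sets 1 naive array against the GC pair, whose signals were alike, so they restate that naive pLN was the highest array and show no fall in GC cells.

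Counting 1 probe set a gene, the brightest, 5 of the 10 members were higher (Ezh2, Eed, Suz12, Phf19 and Mtf2), 1 was lower (Ezh1) and 4 were not called, beside 24.1% higher and 22.8% lower over all 10566 genes tested. With 1 array left out these counts changed, as did those over all probe sets, and the ranges are given at the end. Of 18 other PRC1 genes tested, 6 were higher, 4 lower and 8 not called, shares near those of all genes, with a median fold of 0.47 beside -0.01 over all genes. The paired ligase genes differed: Ring1 read 616 and 511 in GC cells (pLN, then PP) and 1506 and 3850 in naive cells (-2.08 ± 0.44, limma adjusted p = 2.7e-04), and Rnf2 1258 and 1004 against 490 and 516 (1.14 ± 0.42, adjusted p = 0.026). Among the chromobox genes, which read the methylated histone, Cbx6 was 7.29-fold higher and Cbx7 3.76-fold lower in GC cells, and Pcgf6 was 3.55-fold higher. The scaffold gene Phc3 was 3.16-fold lower. The others called were Phc1, lower, and Cbx2, Yaf2 and Bcor, higher. The tested probe sets of Bcor disagreed, with folds from -1.14 to 1.55.

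**Figure D3:**
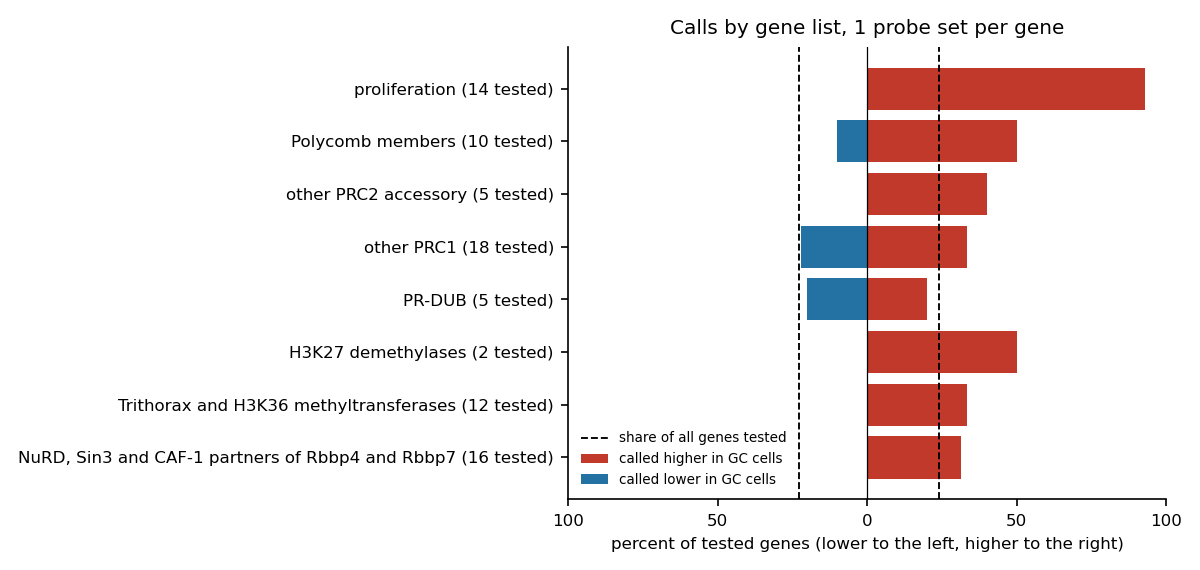
Percent of tested genes called higher (red, to the right) or lower (blue, to the left) in GC cells, by gene list and 1 probe set per gene; dashed lines mark the shares over all genes tested, 24.1% and 22.8%. The 10 Polycomb members have 5 genes higher and 1 lower, the proliferation list 13 of 14 higher.

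Other genes that act with or against Polycomb were taken from lists of 65 in all, PRC1 included, of which 60 were measured and 58 tested. Of these 19 were higher, 5 lower and 34 not called (32.8% and 8.62%), with a median of 0.50. Over all 10566 genes tested 24.1% were higher and 22.8% lower, with a median of -0.01. The same shares stand beside each list that follows, and its small counts are not read as results about a complex. With 1 array left out the counts changed, and the ranges are given at the end. Of 5 other PRC2 accessory genes, Aebp2 (1.01 ± 0.42, limma adjusted p = 0.0462) and Lcorl (2.63 ± 0.47, at least 6.84-fold) were higher, and Phf1, Epop and Lcor were not called. Of the demethylases that remove the PRC2 mark, Kdm6a read 678 and 798 in GC cells (pLN, then PP) and 280 and 55.5 in naive cells, at least 4.0-fold higher, and Kdm6b was not called (0.58 ± 0.42). Of 5 genes of the deubiquitinase complex PR-DUB and its partners, Foxk1 was 4.39-fold higher and Asxl2 3.30-fold lower. Of 12 Trithorax and lysine 36 methyltransferase genes, 4 were higher (Nsd3, 4.83-fold, Nsd1, 3.31-fold, Rbbp5 and Dpy30) and 0 lower. Of 16 genes of the NuRD, Sin3 and CAF-1 complexes, which contain Rbbp4 or Rbbp7, 5 were higher and 0 lower, led by Mta2 (at least 11.3-fold), Sap30 (at least 3.39-fold), Mbd3 and Chd4. Probe sets disagreed here too: those of Aebp2 ran from -1.74 to 1.69 and those of Asxl2 from -1.70 to 2.62. The folds of Lcor ran from -0.11 to 4.31, of Lcorl from -0.18 to 2.66 and of Nsd3 from -0.05 to 2.25.

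Genes known to be held down by PRC2 in B cells were read as a small list. Cdkn1a, a cell cycle inhibitor, read 76.7 and 274 in GC cells (pLN, then PP) and 132 and 1027 in naive cells, and was lower in GC cells (-1.28 ± 0.47, limma adjusted p = 0.0259). Prdm1, the plasma cell regulator, read 118 and 1007 against 38.2 and 78.1 and was at least 3.67-fold higher, with the highest signal in GC PP. Irf4 was not called (-0.16 ± 0.44). Cdkn2a, Cdkn2b and Cdkn1c were not tested, as none was above the level on any array.

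Cell division genes were also higher in GC cells. Of 14 proliferation genes tested, 13 were higher in GC cells and 1 not called, beside 24.1% higher over all genes. Their median fold was 2.64, beside -0.01 over all genes. Mki67 read 8548 and 10204 in GC cells (pLN, then PP) and 552 and 352 in naive cells (4.37 ± 0.43). Rrm2, a subunit of ribonucleotide reductase, was 25.6-fold higher, and Top2a, Birc5 and Ccna2 at least 31.1-fold, 35.1-fold and 27.3-fold. The part of cell division in the Polycomb folds was not tested.

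Comparing tissues, the GC-naive fold was more positive in PP than in pLN for 27 of the 29 tested probe sets, beside 57.6% of all tested; Ezh1 1429629_at and Phf19 1427920_at were the exceptions. In pLN 15 of 29 member probe sets above the level on the brighter array were brighter in GC cells by 2-fold or more and 3 dimmer (all probe sets 30.3% and 17.6%), and in PP 22 of 30 were higher and 1 lower (40.2% and 20.4%). Each is 1 array against 1 array, without a test. Differences between tissues were larger on the naive arrays. In GC cells only Rbbp4 1454791_a_at (2.15) and 1454875_a_at (1.06) of 30 probe sets were brighter in PP by 2-fold or more and 0 were dimmer, beside 5.68% and 1.83%. In naive cells 0 of 24 were higher in PP and 7 lower, beside 9.60% and 18.1%. The median size of the PP-pLN difference over the 29 probe sets was 0.09 in GC cells and 0.63 in naive cells, beside 0.26 and 0.59 over all tested. The Gapdh 5' control signal moved the same way, with 7068 and 6473 in GC cells (pLN, then PP) and 949 and 328 in naive cells; its part was not tested.

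**Figure D4:**
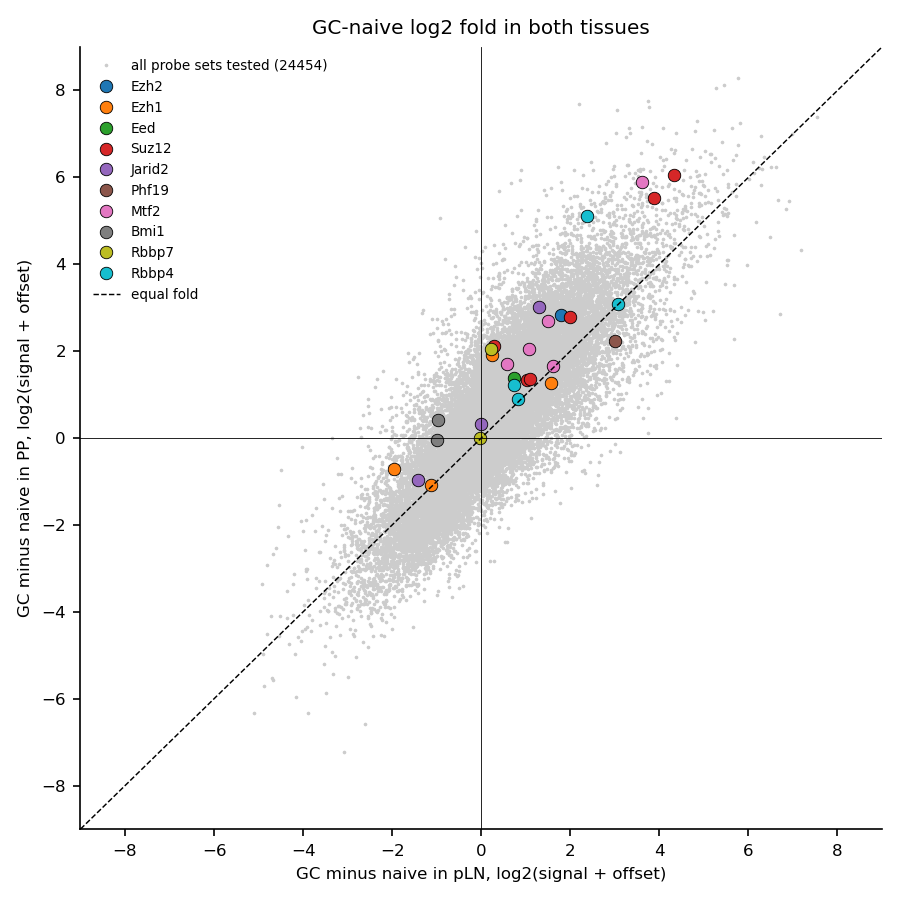
GC minus naive difference in log2(signal + offset) in pLN (x axis) against PP (y axis), each from 1 array against 1 array, for all 24454 probe sets tested (grey) and the 29 member probe sets (coloured by gene); the dashed line marks equal folds. Of the members, 27 of 29 lie above the line, 22 are positive in both tissues and 5 negative in both. Over all probe sets tested 57.6% lie above the line and 51.2% are positive in both.

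Among 10566 genes, the 5 whose pattern over the 4 arrays lay nearest to Ezh2 were Itfg2, Egfl6, Aurka, Cdca7l and Slc12a3, with Euclidean distances of 0.08 to 0.12 between log2 signals centred on each gene's mean. Aurka, a mitotic kinase, read 1052 and 1258 in GC cells (pLN, then PP) and 269 and 169 in naive cells, and Cdca7l 1172 and 1424 against 328 and 172. Itfg2 read 1015 and 1300 against 297 and 177. Egfl6 and Slc12a3 were dim, with naive signals below the level. With 4 arrays such likeness is a description of the order GC PP, GC pLN, naive pLN, naive PP and its steps.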

How the data were processed

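Signals came from Affymetrix cRNA arrays, 1 for each of 4 sorted populations. The deposited values are linear intensities, made with GCOS per the submitters' processing notes; its algorithm and scaling target are not stated. Every deposited array has a median of 1.00, so division by the array median is assumed. What the authors centred on is otherwise unknown. Deposited 2% trimmed means ran from 7.35 to 10.0, and each array was scaled to 500.

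Of 45101 probe sets, 34958 had 1 gene symbol (34945 without control probe sets) (annotation of the platform, checked through RefSeq, 0 symbols changed), 932 several and 9211 none, controls included. From 58 probe sets of 39 genes typical of other tissues, such as liver, came the offset, their median signal of 12.1, and each array's level, their 90th percentile there. Testing with limma (version 3.58.1, R 4.3.3) took probe sets exceeding the level in both samples of at least 1 cell type, on log2(signal + offset), tissue as a block, intensity trend, 1 residual and 31.8 prior degrees of freedom, Benjamini-Hochberg adjustment, threshold 0.05. The error starts from the disagreement between tissues and is moderated over all probe sets. With 1 residual against 31.8 prior degrees of freedom it rests mostly on the spread of probe sets of like intensity. A standard error therefore says little about the tissue disagreement of its own probe set. It was 0.44 for Rbbp7 1415775_at (folds -0.02 in pLN and -0.01 in PP) and 0.45 for Suz12 1449661_at (0.29 and 2.11). Pooling removed the spread between mice, and p-values do not cover it. The block is the tissue from which both cell types came, as the labels give it; that they shared mice is not stated. A "-fold" value is a signal ratio, averaged geometrically over the tissues unless 1 is named. A gene in a list stands by its brightest probe set. The fit was run on simulated data, where the only condition to pass was a small bias of the fold. The simulation held few changed probe sets and no 3' bias, so it does not show how often calls are false here.

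Named were all members, up to 4 called genes a list by fold, a few preset genes and the 5 nearest to Ezh2; Phc1, Phc3, Cbx2, Yaf2, Bcor, Phf1, Epop and Lcor fall outside this rule and were named after their values were seen. Members, lists and tests were chosen with earlier results of these data known. RefSeq promoters (GRCm38.p6) matched all 10 members. 0 columns were left unused. In total 20 alternatives were run, 1 of them added after seeing the data.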

Additional observations from a re-analysis of the deposited data

Results flagged for a closer look

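The Bmi1 probe set 1448733_at had GC-naive log2 folds of opposite direction in the 2 tissues, -0.98 in pLN and 0.42 in PP, a difference of 1.40. Each fold is 1 array against 1 array and the difference was not tested. GC signals were 555 and 591, so it came from the naive signals of 1103 in pLN and 438 in PP.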

How the results depend on the processing

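Of 510 refits of single member probe sets over the 20 alternatives, 418 kept their direction and side of the threshold, 63 lost the call, 14 gained it and 15 changed direction; the cause was not tested except where the setting itself gives it. Ezh2 and Phf19 kept their calls throughout.

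Over all probe sets, counts higher and lower were 4778 and 50 when scaled to the spike-in controls, 3596 higher above the level on all 4 arrays (fewer tested), 4974 and 1956 in limma's treat against a 1.5-fold change, and, with 1 value a gene, 2416 and 2321 (representative), 3222 and 1916 (mean of probe sets) and 2190 and 2497 (brightest on the naive arrays). Leaving out 1 array gave 2330 to 9757 higher and 757 to 5743 lower. Without the replicate block they were 6500 and 3416.

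Member probe sets called lower, 3, were 0 with spike-in scaling and treat and 1 without the replicate block; with 1 array left out they ranged from 0 to 5, and those called higher from 8 to 21. Member genes called higher, 5, were 3 on the deposited scale and with spike-in scaling and 2 with treat (2 to 6 with 1 array left out); the 1 called lower was 0 with spike-in scaling, treat, the mean of probe sets and without the replicate block (0 to 2 with 1 array left out). Other chromatin genes were 12 higher on the deposited scale, 6 higher and 0 lower with spike-in scaling and 10 higher with treat (5 to 26 higher and 0 to 10 lower with 1 array left out).

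Member probe sets at a log2 fold of -1 or below in pLN, 3, were 5 on the deposited scale, with quantile normalization and with cyclic loess, and 1 with spike-in scaling. In PP, 1, they were 2 on the deposited scale and with dim signals at the level, 3 with quantile normalization and cyclic loess, and 0 with spike-in scaling and the higher offset. PP-pLN at 1 or above in GC cells, 2, was 1 on the deposited scale, with cyclic loess and with the higher offset; in naive cells, 0, it was 2 with quantile normalization and cyclic loess and 1 with no offset, and at -1 or below, 7, it was 21 with spike-in scaling.

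Direction changed for Rbbp7 1415775_at (-0.01) with quantile normalization (0.49), cyclic loess (0.60), spike-in scaling (1.20), the mean of probe sets (0.56), without GC pLN (0.02) and without naive PP (0.01). It changed with spike-in scaling for Ezh1 1418290_a_at (0.07) and Bmi1 1417493_at (0.67) and 1448733_at (0.90), the last also without naive pLN (0.38), for Ezh1 with the mean of probe sets (0.01), and for Jarid2 1422698_s_at without naive PP (-0.03; highest with 1 array left out 0.35). With 1 array left out the lowest values were -0.04 for Rbbp7 1415775_at and -0.93 for Bmi1 1448733_at. With dim signals at the level, which is higher on the naive arrays, it changed for Ezh1 1429629_at (-0.19) and 1429630_at (-0.98) and Suz12 1420020_at (-0.45). The level of 121 on naive PP against 31.8 on GC pLN limits what dim probe sets can show.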
